A study of Mus musculus with 16 samples.

Results

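The 10 genes described here carry calcium and magnesium across the epithelium of the distal nephron: the entry channels Trpv5 and Trpv6, the calcium buffers Calb1 and S100g, the exit proteins Slc8a1, Atp2b1 and Atp2b4, the magnesium channels Trpm6 and Trpm7, and the calcium-sensing receptor Casr. They were chosen by name as a pathway. All 10 were found among the 30277 genes of the table, and all 10 were among the 17608 genes tested. Polyadenylated RNA was sequenced from the whole kidneys of 16 congenic C57BL/6J mice aged 46 to 59 days, with 4 libraries in each of 4 groups. Male KlKl and female KlKl mice were homozygous for a recessive Klotho mutation (Kl/Kl) and had renal failure per the labels. Male controls 1 and 2 and all 4 female controls were heterozygous (+/Kl), male controls 3 and 4 were wild type (+/+), and both kinds of control were described as healthy. The mutation is carried by every cell of the animal, and kidneys were perfused and flash frozen whole. The comparisons ask how these genes differ between KlKl and control kidneys in each sex, and how the sexes differ. Loss of Klotho and renal failure come together in the KlKl mice and cannot be told apart.

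In the distal convoluted and connecting tubule, calcium enters the cell from the urine through TRPV5 and TRPV6, is carried across by calbindins, and leaves on the blood side through a sodium-calcium exchanger and plasma membrane calcium pumps. Magnesium enters the same segment through TRPM6, often together with TRPM7. The vitamin D hormone raises several of these genes, and parathyroid hormone and the calcium-sensing receptor set how much calcium is kept. Klotho, a membrane protein of the distal tubule, lets the phosphate hormone FGF23 bind its receptor and in its shed form can keep TRPV5 at the cell surface.

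The stretches upstream of the annotated starts of 4 of these genes are shown because the largest or best separated differences below concern them. Sequences are from RefSeq, build GRCm38.p6, in which 9 of the 10 genes were matched. Each is the 250 bases before the start, in the direction of transcription, with capitals marking AGGTCA or GGTTCA on either strand (TGACCT or TGAACC as printed). These 6-letter words are half-sites bound by nuclear receptors such as the vitamin D receptor.
S100g, chrX:162964600-162964849, minus strand: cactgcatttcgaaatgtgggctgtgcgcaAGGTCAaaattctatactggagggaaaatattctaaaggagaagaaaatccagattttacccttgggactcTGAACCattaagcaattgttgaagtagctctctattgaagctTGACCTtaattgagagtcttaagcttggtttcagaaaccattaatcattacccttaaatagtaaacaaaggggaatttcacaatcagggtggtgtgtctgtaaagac
Trpv6, chr6:41636406-41636655, minus strand: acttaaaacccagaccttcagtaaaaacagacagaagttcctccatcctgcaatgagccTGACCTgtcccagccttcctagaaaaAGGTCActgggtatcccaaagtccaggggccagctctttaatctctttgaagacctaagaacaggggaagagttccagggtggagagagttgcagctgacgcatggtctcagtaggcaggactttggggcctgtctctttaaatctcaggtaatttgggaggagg
Trpv5, chr6:41680724-41680973, minus strand: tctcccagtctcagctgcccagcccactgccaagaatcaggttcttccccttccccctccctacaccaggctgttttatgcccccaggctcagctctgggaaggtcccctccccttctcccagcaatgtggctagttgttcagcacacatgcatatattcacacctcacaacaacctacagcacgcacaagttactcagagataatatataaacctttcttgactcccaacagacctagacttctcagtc
Casr, chr16:36562135-36562384, minus strand: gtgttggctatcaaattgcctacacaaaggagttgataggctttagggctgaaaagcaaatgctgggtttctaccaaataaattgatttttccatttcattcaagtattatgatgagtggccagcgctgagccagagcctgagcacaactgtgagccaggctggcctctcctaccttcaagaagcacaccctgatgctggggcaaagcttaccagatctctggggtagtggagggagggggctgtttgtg
The S100g window held AGGTCA 2 times and GGTTCA 1 time, and the Trpv6 window held AGGTCA 2 times. Neither word was in the other windows of these genes, which include those of Trpv5 and Casr. Of 32851 mouse windows of this length 14% held AGGTCA and 8.85% held GGTTCA on either strand. The spaced repeat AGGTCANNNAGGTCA was in 0.00609% of windows and in none of the windows of these genes. These are matches of letters and show no binding.

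Kl, at positions 150876072 to 150917283 of the plus strand of chromosome 5 (build mm39), was low in each KlKl kidney, as labelled. The deposited values held 1 repeated entry, that of Kl, which was counted once by its first listing. The deposited unit is TPM, a length-scaled expression value, rescaled here by median ratio so that the typical gene has the same value in every library. Kl averaged 0.761 ± 0.42 rescaled TPM in male KlKl against 9.78 ± 1.24 in male control kidneys, and 0.155 ± 0.091 in female KlKl against 4.02 ± 1.67 in female control kidneys (SD, n = 4 each). Recovered depth was 13029449 to 20108527 reads in the male libraries, against 8209314 to 14504905 reads in the female ones. Sex and depth therefore cannot be told apart, and library names carry sample numbers 17 to 24 in each sex, with no statement of which were sequenced together. Female control 3 had the fewest reads and 15.22% of its TPM from ribosomal RNA, against 3.32% to 6.18% in the other libraries. Replicates 1 and 2 of every group have library names of 1 series (CFK) and replicates 3 and 4 of another (CFdk); the labels do not say what the series mark.

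The calcium buffers were by far the most abundant of these RNAs. As reads scaled to the library's total and to kb of exon (RPKM), S100g stood at 1598 ± 201 in male KlKl and 1110 ± 376 in male control kidneys. In females it stood at 3254 ± 339 in KlKl and 2687 ± 1292 in control kidneys (SD, n = 4 each). Calb1 was second in every group, with means of 67.6 to 90.8 RPKM. Trpm7 followed with means of 9.75 to 12.2, above Slc8a1 at 6.69 to 9.22 and Atp2b1 at 5.44 to 9.49, and the ranges of Slc8a1 and Atp2b1 over libraries overlapped in each group. The range of Trpm7 overlapped that of Slc8a1 in every group but male controls, and that of Atp2b1 in both female groups. In female controls it was 6.80 to 11.1, against 6.90 to 13.1 for Slc8a1 and 6.56 to 12.1 for Atp2b1. Trpv5 (2.41 to 4.56) and Casr (1.76 to 5.39) lay lower and also overlapped in each group. The mean of Trpm6 (1.81 to 2.49) was below that of Casr in both male groups and above it in both female groups, where the ranges of the pair overlapped. Atp2b4 (0.975 to 1.47) came next, and Trpv6, at 0.417 to 0.722, was the lowest in each group, with no library reaching the range of Atp2b4. Trpv6 therefore rested on 15 to 42 reads per library, and Trpv5 on 58 to 272. The exon lengths are from an annotation of build GRCm38, whose gene models need not match those of the deposited table. Whether reads over introns were counted is not known. The order below Calb1 is therefore uncertain for genes with long introns, such as Slc8a1 (18.81 kb of exon in a span of 365.3 kb).

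**Figure D1:**
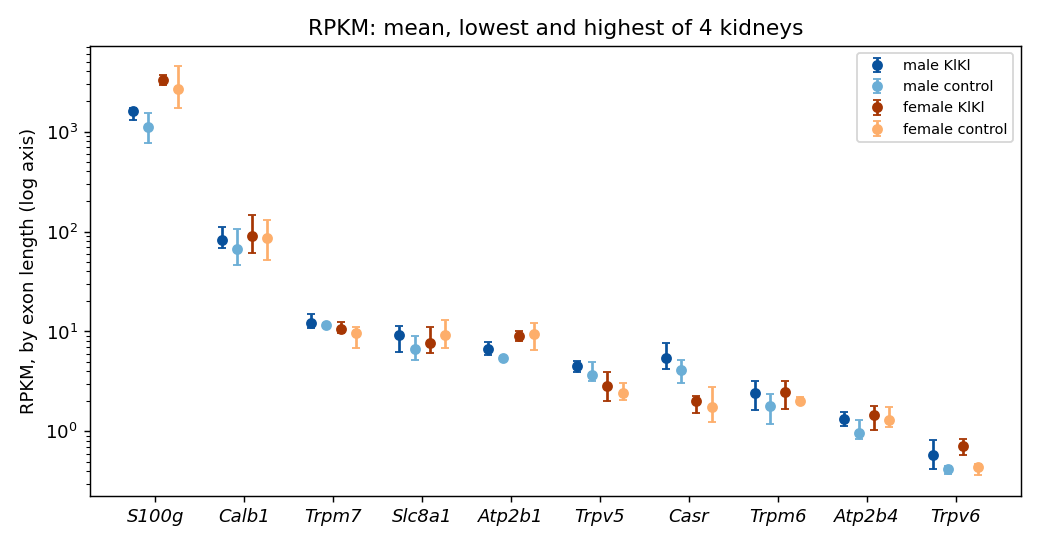
RPKM of each gene by exon length (log axis) in the 4 groups of 4 kidneys. Points are means and bars run from the lowest to the highest library; S100g stands above Calb1 in every group, and Trpv6 is lowest.

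In KlKl kidneys 0 of the 10 genes passed an adjusted p of 0.05 (limma, Benjamini-Hochberg over 17608 genes) in the mean of both sexes, in males, in females or in the difference between the sexes. Few genes of any kind passed: 0.0227% of those tested in the mean of both sexes, 0.0114% in males, 0.017% in females and 0% in the difference. The genes that passed in the mean were Kl, which fell by 4.32 on the log2 scale (SE 0.36, adjusted p = 0.0001265), Crabp1, Anxa13 and Serpina1a, named after their values were seen. Osbp2 passed beside Kl in males, and Crabp1 and Anxa13 passed beside Kl in females. The male Kl call ended in 7 of 16 fits with 1 library left out, at differences of -4.21 to -3.35 over all 16. It ended also with heterozygous controls alone (-3.88, adjusted p = 0.2443, limma). At an unadjusted p of 0.05, 1 of the 10 genes (Trpv6) passed in the mean of both sexes, where 6.05% of all genes did. In females 1 of the 10 did, against 3.74% of all genes. In males 0 did, against 5.36%, and in the difference 0 did, against 2.69%. Limma's voom on recovered reads also called 0 of the 10. On the deposited scale the median of all genes moved by 0.22 in the mean of both sexes, 0.26 in males and 0.17 in females, and again 0 of the 10 passed. Whole-kidney RNA cannot tell fewer cells of a type from less RNA per cell.

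The calcium entry channels lie next to each other on the minus strand of chromosome 6, Trpv6 at 41597558 to 41613340 and Trpv5 at 41629107 to 41657704 (mm39). Trpv6 stood at 0.143, 0.166, 0.112 and 0.146 rescaled TPM in female KlKl kidneys, against 0.0924, 0.0941, 0.106 and 0.0796 in female control kidneys. Every female KlKl library was above every female control, which 0.886% of all genes showed in that direction (1.18% in the other). In males 0 of the 10 genes were separated, against 2.02% of all genes higher and 2.5% lower. For Trpv6 in females the difference in log2(rescaled TPM + 0.01) was 0.55 (SE 0.15, 95% interval 0.22 to 0.88, unadjusted p = 0.002909 and adjusted p = 0.965 by limma). In males Trpv6 was 0.0822, 0.111, 0.138 and 0.108 in KlKl against 0.0901, 0.0932, 0.0956 and 0.0757 in control kidneys, and these groups overlapped. The male difference was 0.26 (95% interval -0.065 to 0.59, adjusted p = 0.9917 by limma). It was 0.055 between libraries of the CFK series and 0.47 between those of the CFdk series, and the female difference 0.67 and 0.43, with 2 libraries a side in each. With weights for libraries of differing quality, the female difference of Trpv6 passed (0.57, adjusted p = 0.02644 by limma), while 217 genes in all then passed, against 3 without weights. Trpv5, the main entry channel of the distal convoluted tubule, showed overlapping groups in each sex, with differences of 0.17 in males and 0.088 in females.

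Calb1 and S100g encode cytosolic calcium binders. S100g, on the minus strand of the X chromosome at 161744988 to 161747596, had 247, 192, 214 and 252 rescaled TPM in male KlKl kidneys, against 215, 245, 120 and 122 in male control kidneys. In females it had 413, 441, 486 and 549 in KlKl, against 264, 256, 760 and 444 in control kidneys. Groups overlapped in each sex: the male controls split into 2 high and 2 low libraries, and female control 3 was the highest of all 16. The differences were 0.44 in males (SE 0.32) and 0.27 in females (SE 0.32), with adjusted p values of 1 and 0.965 by limma. Without female control 3 the female difference was 0.60, the most it reached when 1 library was left out, and without female control 2 it was 0.072. Calb1 (chromosome 4, 15881264 to 15908065, plus strand) ranged over 8.39 to 15.8 rescaled TPM in male KlKl and 7.05 to 16.5 in male control kidneys, and over 8.71 to 21.7 in female KlKl and 7.45 to 21.7 in female control kidneys. Its differences were 0.20 in males and -0.036 in females, with 95% intervals of -0.58 to 0.99 and -0.82 to 0.75. Calb1 varied most within groups of the 10 genes (residual SD 0.56 on the log2 scale) and Trpm7 least (0.16).

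Slc8a1 encodes the sodium-calcium exchanger that moves calcium to the blood side. It lies on chromosome 17 at 81680534 to 82045807, minus strand, and ranged over 0.257 to 0.480 rescaled TPM in male KlKl against 0.226 to 0.403 in male control kidneys, and over 0.241 to 0.469 in female KlKl against 0.289 to 0.621 in female control kidneys. Its differences pointed in opposite directions, 0.30 in males and -0.34 in females. The difference between these effects was 0.64 (SE 0.41, 95% interval -0.23 to 1.505, adjusted p = 0.9997 by limma). The plasma membrane calcium pump genes Atp2b1 (chromosome 10, 98750268 to 98862006, plus strand) and Atp2b4 (chromosome 1, 133627195 to 133728780, minus strand) differed by 0.15 and 0.29 in males and by -0.16 and 0.073 in females, all with overlapping groups.

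The magnesium channels also overlapped between KlKl and control kidneys. Trpm6, the channel lost in inherited low magnesium with low calcium, lies on chromosome 19 at 18727347 to 18869876, plus strand. It ranged over 0.0712 to 0.117 rescaled TPM in male KlKl against 0.0521 to 0.113 in male control kidneys, and over 0.0692 to 0.141 in female KlKl against 0.0835 to 0.109 in female control kidneys. Trpm7 (chromosome 2, 126633485 to 126718151, minus strand), a widely expressed relative, differed by -0.072 in males (95% interval -0.34 to 0.19) and by 0.024 in females (-0.24 to 0.29), the narrowest intervals of the 10. Casr, the receptor that senses blood calcium (chromosome 16, 36314058 to 36382504, minus strand), differed by 0.24 in males and 0.11 in females. Over the 10 genes the median difference was 0.25 in males and 0.080 in females, against -0.015 and 0.0041 over all genes tested. In males 9 of the 10 differences were above 0 and in females 7, against 46.7% and 51% of all genes. With heterozygous controls alone the male differences of Trpv5 (-0.014), Calb1 (-0.24), S100g (-0.029) and Trpm6 (-0.085) were below 0 as well, which left 5 of 10 above 0.

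**Figure D2:**
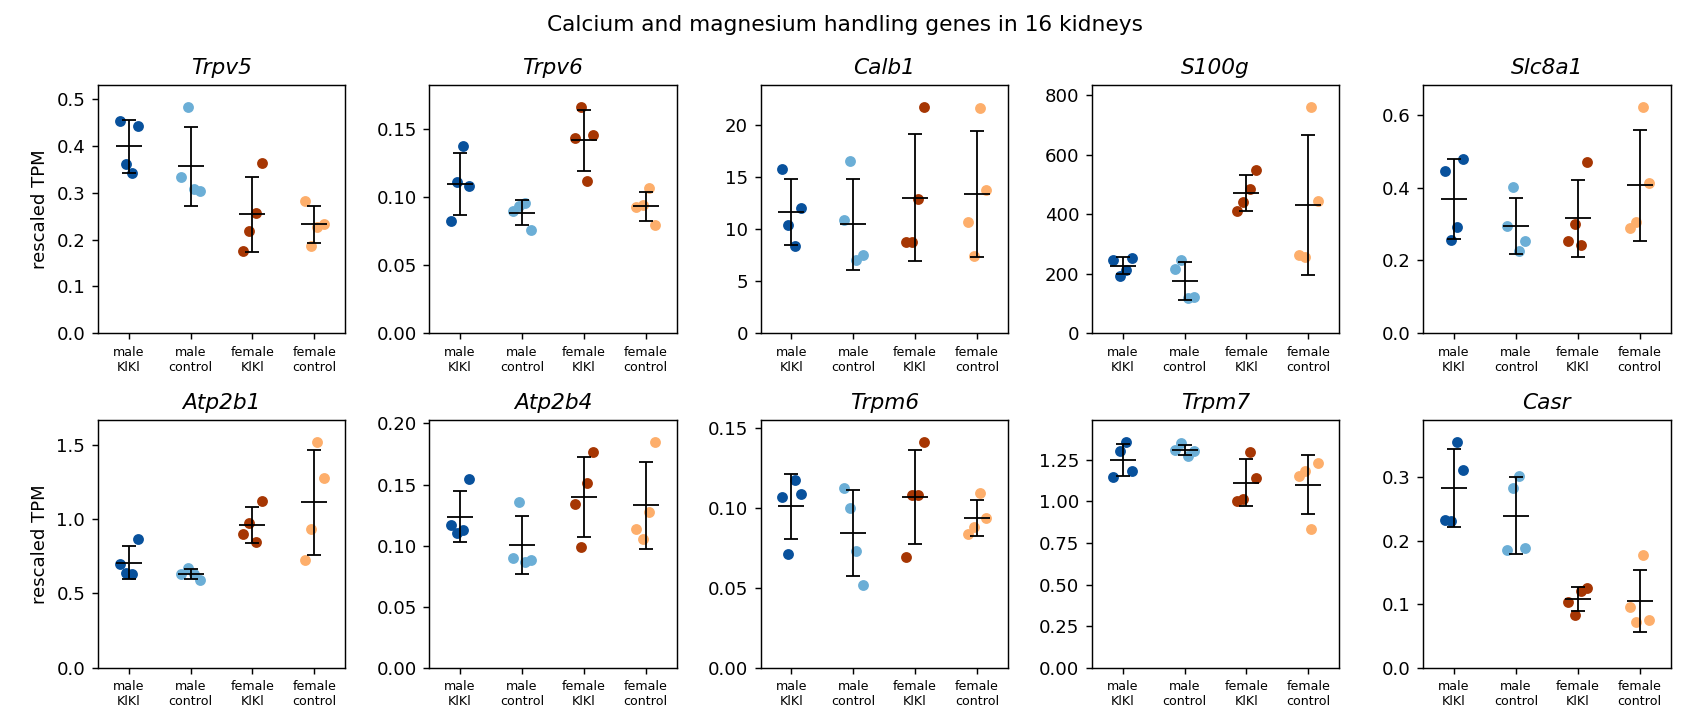
Rescaled TPM of the 10 genes in the 16 kidneys, 1 point per animal, with the mean and SD of each group of 4. Casr and Trpv5 are higher and S100g is lower in the male groups, while KlKl and control kidneys of a sex overlap for every gene except Trpv6 in females.

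**Figure D3:**
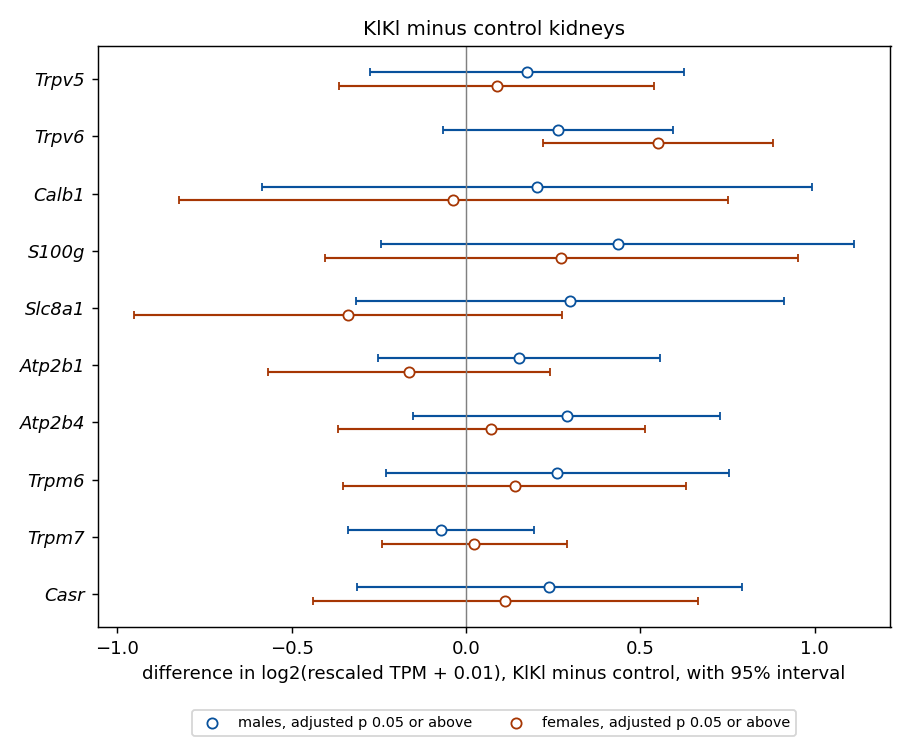
Difference between KlKl and control kidneys in log2(rescaled TPM + 0.01) for males and females, with 95% intervals. Each interval includes 0 except that of Trpv6 in females (0.22 to 0.88), and no adjusted p is under 0.05.

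The male controls joined 2 wild-type and 2 heterozygous animals, which are also the 2 name series, so genotype and series cannot be told apart. S100g was 215 and 245 rescaled TPM in the heterozygous animals, against 120 and 122 in the wild-type animals, a ratio of 1.91 that 1.72% of tested genes reached. Calb1 was 10.8 and 16.5 against 7.05 and 7.46, a ratio of 1.89 that 1.78% reached. Trpm6 had a ratio of 1.70 and Slc8a1 of 1.45. In 8 of the 10 genes both heterozygous animals were above both wild-type animals, against 21.4% of all genes in that direction, and no test was run on the 2 animals a side. The male KlKl mean of S100g was 0.984 times that of the heterozygous and 1.88 times that of the wild-type controls. With heterozygous controls alone the male KlKl difference of S100g was -0.029, against 0.44 with all controls. In females, where every control was heterozygous, the CFK controls were the lower ones for S100g.

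**Figure D4:**
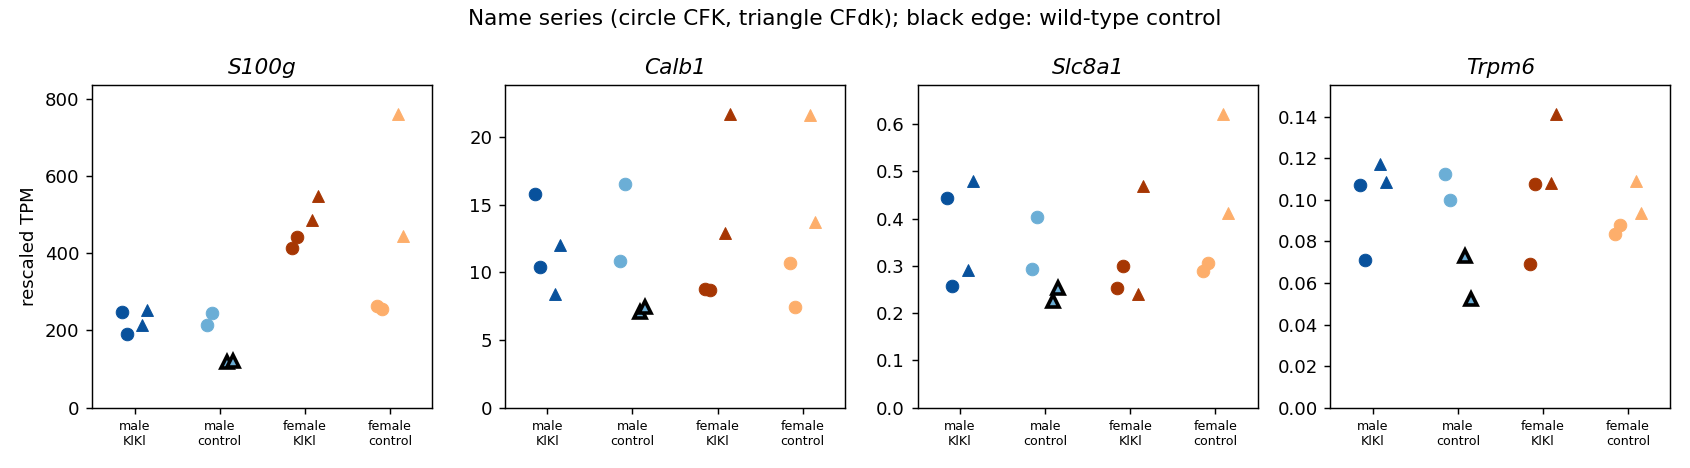
Rescaled TPM of S100g, Calb1, Slc8a1 and Trpm6 by group, with circles for the CFK and triangles for the CFdk name series and a black edge for wild-type animals. The 2 wild-type male controls are the lowest male controls for each of the 4 genes, and for S100g the CFdk female controls are the highest.

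The sexes differed more than the genotypes. Among KlKl kidneys 3 of the 10 genes passed, Casr and Trpv5 higher and S100g lower in males, where 25.4% of all genes passed (13.4% higher and 12% lower). Among controls 4 of the 10 passed, Casr and Trpv5 higher and S100g and Atp2b1 lower in males, where 38.7% of all genes passed (20.7% higher and 18% lower). These shares are near those of all genes. Kl, outside the 10, was also higher in males. The difference of Kl was 2.11 in KlKl, where the groups overlapped (adjusted p = 0.009558, limma), and 1.35 in controls (adjusted p = 0.0487, limma). The control call of Kl ended in 10 of 16 fits with 1 library left out. The median difference over the 10 was -0.073 in KlKl and -0.25 in controls, against -0.0069 and -0.0012 over all genes. On the deposited scale, without rescaling, the median of all genes moved by 0.42 in KlKl and 0.31 in controls, and the split of all genes became 7101 higher and 404 lower in KlKl (2352 and 2115 after rescaling), and 6251 and 1142 in controls (3650 and 3171 after rescaling).

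Casr had the largest sex difference of the 10 genes in KlKl kidneys, while in controls that of S100g, in the other direction, was larger in size. It stood at 0.232, 0.231, 0.355 and 0.312 rescaled TPM in male KlKl kidneys, against 0.104, 0.0834, 0.121 and 0.125 in female KlKl kidneys. In controls it stood at 0.186, 0.282, 0.301 and 0.188 in males, against 0.0959, 0.0720, 0.177 and 0.0745 in females. Every male was above every female of its genotype, which 16.8% of all genes showed in KlKl and 20.5% in controls. The difference was 1.30 in KlKl (SE 0.26, adjusted p = 0.003384, limma) and 1.17 in controls (SE 0.26, adjusted p = 0.003149, limma), or 2.46-fold and 2.25-fold. It was 1.23 and 1.37 in the CFK and CFdk series of KlKl, and 1.36 and 0.98 in those of controls. The thick ascending limb, where much of the kidney's Casr lies, is marked by Umod, Slc12a1 and others. The summed level of 5 such markers was 147 to 166 in male KlKl against 103 to 134 in female KlKl, and 126 to 145 in male control against 104 to 143 in female control kidneys. Of these 5, 3 had differences below 0 in males against females of each genotype (medians -0.18 in KlKl and -0.33 in controls). In KlKl males 1 rose and 1 fell, where 13.4% of all genes rose and 12% fell. In control males 0 rose and 2 fell, where 20.7% rose and 18% fell. The part of these markers in the Casr difference was not tested.

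Trpv5 stood at 0.454, 0.361, 0.342 and 0.442 rescaled TPM in male KlKl kidneys, against 0.176, 0.218, 0.257 and 0.363 in female KlKl kidneys. In controls it stood at 0.333, 0.482, 0.308 and 0.304 in males, against 0.283, 0.186, 0.227 and 0.233 in females. The control groups did not overlap, while female KlKl 4 was above 2 of the KlKl males. The difference was 0.67 in KlKl (SE 0.21, adjusted p = 0.03115, limma) and 0.59 in controls (SE 0.21, adjusted p = 0.03971, limma). Both calls lie near the threshold: without a filter on reads the adjusted p values were 0.05997 and 0.07175, and each call ended when any 1 of 5 libraries was left out. Trpv6 differed by -0.35 in KlKl (adjusted p = 0.108, limma) and -0.063 in controls, and on the deposited scale by 0.076 and 0.24, so its direction flipped with the scaling.

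S100g was lower in males, with all 4 males below all 4 females in KlKl (192 to 252 against 413 to 549) and in controls (120 to 245 against 256 to 760). Of all genes 14.4% showed that in KlKl and 16% in controls. The difference was -1.06 in KlKl (SE 0.32, adjusted p = 0.02561, limma) and -1.22 in controls (SE 0.32, adjusted p = 0.008039, limma). In KlKl it was -0.97 in the CFK and -1.15 in the CFdk series. In controls it was -0.18 in the CFK series, in which every animal was heterozygous. It was -2.27 in the CFdk series, in which the males were wild type and the females heterozygous. The size of the control difference therefore did not hold between series. Control males had 120 and 122 rescaled TPM in CFdk against 215 and 245 in CFK. Control females, all heterozygous, had 760 and 444 in CFdk against 264 and 256 in CFK. Leaving out female control 3 (760) gave a control difference of -0.90, and the call held. The part of genotype in the gap between series was not tested. With heterozygous controls alone the call in controls ended (-0.76, adjusted p = 0.1424, limma), as it did with the 8 libraries of that contrast alone (adjusted p = 0.05154, limma). The call in KlKl ended on the deposited scale (-0.60, adjusted p = 0.07756, limma) and without a filter on reads (adjusted p = 0.05283, limma). The KlKl call ended also without male KlKl 2, or female KlKl 2, 3 or 4, at differences of -0.99 to -1.12 over all libraries left out. The gene overlaps Ctps2, on the opposite strand, which had 214 to 604 reads against 7437 to 21781 for S100g.

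Atp2b1 encodes a calcium pump of most cells. It stood at 0.695, 0.637, 0.630 and 0.869 rescaled TPM in male KlKl kidneys, against 0.900, 0.977, 0.844 and 1.12 in female KlKl kidneys. In controls it stood at 0.632, 0.671, 0.628 and 0.594 in males, against 0.727, 0.931, 1.52 and 1.28 in females. Male controls were all below female controls, and in KlKl only male KlKl 4 reached into the female range. The difference was -0.44 in KlKl (SE 0.19, adjusted p = 0.1007, limma) and -0.75 in controls (SE 0.19, adjusted p = 0.006693, limma). The control difference was -0.33 in the CFK and -1.18 in the CFdk series. With heterozygous controls alone it was little changed but missed the threshold (-0.71, adjusted p = 0.06257, limma). That setting holds fewer male controls, and calls over all genes fell from 6821 to 3494. In the KlKl comparison Atp2b1 passed with the 8 libraries of that contrast alone (adjusted p = 0.04782, limma), with an age term (-0.52, adjusted p = 0.0179, limma) with library weights (-0.38, adjusted p = 0.035, limma) and without female control 1 or 3, while on the deposited scale its difference was 0.015.

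Calb1, Slc8a1, Atp2b4, Trpm6 and Trpm7 did not pass between the sexes. Trpm7 was higher in every male control (1.28 to 1.35 rescaled TPM) than in any female control (0.836 to 1.23), with a difference of 0.27 (SE 0.12, adjusted p = 0.1044, limma), and overlapped in KlKl. On the deposited scale Trpm7 passed in KlKl (0.62, adjusted p = 0.01035, limma) and controls (0.60, adjusted p = 0.0131, limma), and Slc8a1 passed in KlKl (0.66, adjusted p = 0.03852, limma). The other differences ran from -0.15 to 0.22 in KlKl and from -0.42 to -0.18 in controls.

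**Figure D5:**
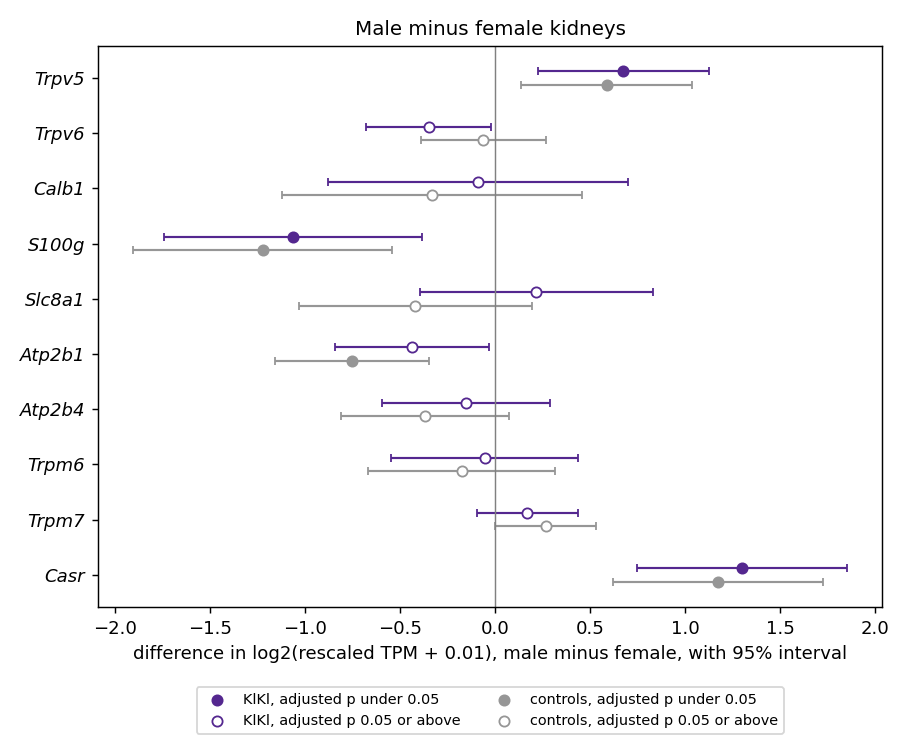
Difference between male and female kidneys in log2(rescaled TPM + 0.01), for KlKl and control animals, with 95% intervals; filled points have an adjusted p under 0.05. Casr lies at 1.30 and 1.17 and S100g at -1.06 and -1.22, on opposite sides of 0.

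The hormone axis around these channels had its largest KlKl differences in the vitamin D enzymes, which did not pass. Cyp24a1, which inactivates the vitamin D hormone, averaged 39.5 ± 24.9 rescaled TPM in male KlKl against 4.42 ± 1.54 in male control kidneys, and 9.04 ± 2.68 in female KlKl against 2.13 ± 1.30 in female control kidneys (SD, n = 4 each). Cyp27b1, which makes the hormone, averaged 5.23 ± 2.92 against 1.41 ± 0.66 in males and 1.92 ± 0.88 against 0.678 ± 0.50 in females. The mean differences of both sexes were 2.40 for Cyp24a1 (SE 0.52, adjusted p = 0.3803, limma) and 1.80 for Cyp27b1 (SE 0.40, adjusted p = 0.401, limma). Trpv4, a further calcium-permeable channel, had a difference of -0.26 (SE 0.074, adjusted p = 0.5481, limma). Of the 20 genes of this list, which also holds the channel-trafficking partners, 0 passed in any KlKl comparison. In the mean of both sexes 4 had an unadjusted p under 0.05 by limma (2 higher and 2 lower), where 6.05% of all genes did. The list's median difference was 0.032, against 0.00056 over all genes.

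Between the sexes more genes of this list fell than rose in males. In KlKl 0 of 20 rose and 6 fell, among them the calmodulin gene Calm2 (-0.43), Anxa2 (-0.44), the stanniocalcin gene Stc1 (-1.80) and the kallikrein gene Klk1 (-0.83). In controls 2 rose, the parathyroid hormone receptor gene Pth1r (0.66, adjusted p = 0.0005311, limma) and the vitamin D receptor gene Vdr (0.58, adjusted p = 0.0264, limma), and 7 fell. They included Anxa2 (-0.69), an adaptor that with S100a10 carries TRPV5 and TRPV6 to the membrane, Calm2 (-0.44), Stc1 (-1.79) and the aldosterone-induced kinase gene Sgk1 (-1.42). The median of the list was 0.022 in KlKl and -0.15 in controls. Of all genes 13.4% rose and 12% fell in KlKl males, and 20.7% rose and 18% fell in control males.

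Of 10 other calcium pump, exchanger, release and buffer genes tested, 0 passed between KlKl and control kidneys, 0 had an unadjusted p under 0.05 in any KlKl comparison, and the median difference was 0.020 in the mean of both sexes. Between the sexes the endoplasmic reticulum pump gene Atp2a2 rose in males, to 3.85 ± 0.77 against 2.42 ± 0.22 rescaled TPM in KlKl and 4.24 ± 0.46 against 2.39 ± 0.42 in controls (SD, n = 4 each). The calcium release channel gene Itpr2 fell in males of each genotype (-0.55 in KlKl and -0.71 in controls). Atp2a3 (-0.80) and Pvalb (-0.95), which encodes a calcium buffer of the distal convoluted tubule, fell in control males.

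Among 18 other magnesium-handling genes 0 passed in any KlKl comparison, and the median difference was -0.013 in the mean of both sexes. Slc41a3, a member of a magnesium transporter family, had 0.0486 ± 0.0031 rescaled TPM in male KlKl against 0.0331 ± 0.0042 in male control kidneys, and 0.0542 ± 0.0110 against 0.0393 ± 0.0112 in females (SD, n = 4 each), with a mean difference of 0.42 (SE 0.12, adjusted p = 0.512, limma). Between the sexes 2 rose and 0 fell in KlKl males, the magnesium transporter gene Slc41a1 (0.49) and the mitochondrial magnesium channel gene Mrs2 (0.40). In control males 6 rose and 0 fell. Of all genes 13.4% rose and 12% fell in KlKl males, and 20.7% rose and 18% fell in control males. The 6 included Mrs2 (0.79), the epidermal growth factor receptor gene Egfr (0.62), Slc41a1 (0.48) and Cnnm2 (0.44). The list's median was 0.26 in KlKl and 0.35 in controls.

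The thick ascending limb reabsorbs calcium and magnesium between cells, and 0 of 9 tested genes of that route passed in a KlKl comparison, with a median of 0.029 in the mean of both sexes. Between the sexes in KlKl, the uromodulin gene Umod was higher (0.54) and the sodium-potassium-chloride cotransporter gene Slc12a1 lower (-0.43) in males than in females. In controls Slc12a1 (-0.82) and Cldn16 (-0.75), a claudin that lets magnesium and calcium pass, were lower in males than in females. Of 10 partners of the distal convoluted tubule 0 passed in a KlKl comparison, and the median was 0.060. Slc12a3, the thiazide-sensitive cotransporter gene that defines this segment, averaged 10.5 ± 0.73 rescaled TPM in male KlKl against 11.5 ± 1.38 in male control kidneys, and 10.7 ± 0.96 against 13.5 ± 2.23 in females (SD, n = 4 each), a mean difference of -0.22 (SE 0.088, adjusted p = 0.758, limma). Between the sexes in KlKl, the potassium channel genes Kcnj16 (0.78) and Kcnj10 (0.55) were higher in males than in females. In controls Kcnj16 (0.60) was higher in males than in females. The kinase gene Stk39 (-0.55), Klhl3 (-0.55), Hsd11b2 (-0.48) and Sgk1 (-1.42) were lower in control males than in control females.

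Some markers of the segments that hold these genes also differed by sex. The summed level of 7 connecting tubule and principal cell markers was 225 to 467 rescaled TPM in male KlKl against 591 to 661 in female KlKl, and 297 to 433 in male control against 521 to 725 in female control kidneys. Of these 7, 2 fell in KlKl males and 3 in control males, and 0 rose, where 12% of all genes fell in KlKl males and 18% in control males. The sum of 5 distal convoluted tubule markers overlapped in KlKl, at 13.7 to 16.4 in males against 14.1 to 16.4 in females. In controls it was 14.9 to 17.1 in males against 17.2 to 21.5 in females. Of these 5, 1 rose (Kcnj10) and 0 fell in KlKl males, where 13.4% of all genes rose and 12% fell. In control males 0 rose and 2 fell (Klhl3 and Pvalb), where 20.7% rose and 18% fell. The part of these markers in the S100g and Atp2b1 differences was not tested. Between KlKl and control kidneys the 12 markers of the 2 segments gave 0 calls, with medians of -0.031 and -0.13 in the mean of both sexes. Fibroblast and smooth muscle markers, 6 in all, summed to 6.51 to 8.73 in male KlKl against 13.1 to 15.3 in female KlKl, and 5.63 to 7.94 in male control against 9.49 to 14.5 in female control kidneys. The sum of 6 proximal tubule markers was 201 to 279.5 in male KlKl against 233 to 259 in female KlKl, and 244 to 321 in male control against 143 to 239.8 in female control kidneys. Of these 6, 2 rose in KlKl males (median 0.66) and 3 in control males (median 0.60), and 0 fell, where 13.4% and 20.7% of all genes rose. The 4 tubule injury markers (Havcr1, Lcn2, Krt20 and Vcam1) gave 0 calls between KlKl and control kidneys. Their sum was 1.27 to 4.88 in male KlKl against 0.660 to 1.16 in male control kidneys, and 2.00 to 2.67 in female KlKl against 1.06 to 2.08 in female control kidneys. All 4 were higher at an unadjusted p under 0.05 in the mean of both sexes (median 1.18) and in males (median 1.45), and 1 of 4 in females (median 0.71). Of all genes 6.05% in the mean, 5.36% in males and 3.74% in females had such a p in either direction. The sum of 5 erythrocyte markers was 65.8 to 399.7 in male KlKl against 10.1 to 123 in male control kidneys, and 18.3 to 60.2 in female KlKl against 3.73 to 152.5 in female control kidneys. All 5 had differences above 0 in KlKl males against control males (median 1.80), with 0 calls, and 1 of 5 rose in KlKl males against KlKl females (median 2.04). Of all genes 46.7% were above 0 in the former comparison and 13.4% rose in the latter. The part of these markers in the differences of the 10 genes was not tested.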

How the data were processed

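Polyadenylated RNA of 16 whole kidneys was sequenced from directional libraries, per the labels' protocols. The authors deposited 1 table of TPM, made with Partek on build mm39 per the submitters' processing notes; for the aligner, the annotation and the counting rule, nothing is given in the sources used here. Tested on the values, the deposited TPM follow reads plus 0.0001, over the start-to-end span of the gene with its introns, at a total fixed at 309446. A sum held mostly by mitochondrial genes and pseudogenes therefore enters comparisons on the deposited scale, and rescaling by median ratio divides it out. Reads were recovered from the relation of TPM to reads and span (81.3% of values under 20 reads were whole within 0.1). A count of 0 allows up to 3 reads, for counting error only.

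TPM were rescaled by median ratio. Genes with 10 or more reads in at least 4 libraries were tested, 17608 in all, on log2(rescaled TPM + 0.01), which understates the changes of low genes. The 4 group means were estimated over 16 libraries, with 12 residual degrees of freedom, by limma 3.58.1 (R 4.3.3, trend on), and p was adjusted by the Benjamini-Hochberg method within each of 6 contrasts, two-sided, with a threshold of 0.05. Each library is labelled as its own replicate; where the labels do not name separate animals, p-values measure the spread between these libraries. The fit was tested on simulated data.

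The members and the gene lists were chosen with earlier results of these data known. Named are the 10 genes, Kl, and of each list the passing genes (at most 5 per contrast and direction, smallest p first) or, with fewer than 3 such, those with the smallest p; some listed genes are not reported here. Calb2 and Tusc3 and the parathyroid markers Pth and Gcm2 are not analysed here; Atp2b3, Slc8a2, Slc8a3, Kcna1 and Cldn14 had too few reads to test. Alternatives covered pseudocount, filter, scaling, trend, voom, library weights, replicate number, name series, age, only heterozygous controls, a fit per contrast, a stricter threshold, leaving out each library and, chosen after seeing the data, omitting both female control 3 and male KlKl 3.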

Additional observations from a re-analysis of the deposited data

Results flagged for a closer look

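Within each group of 4 libraries, a value was singled out when its gap to the nearest of the others, over the whole range of the group, was above Dixon's 95% critical value for 4 values. Of 44 groups checked (the 10 genes and Kl in 4 groups) 3 were singled out, where chance gives about 1 in 20. Atp2b4 was 0.1548 rescaled TPM in male KlKl 4, the oldest of the mice at 59 days, against 0.1103 to 0.1169 in the other male KlKl kidneys. Atp2b4 was also 0.1358 in male control 2, against 0.08663 to 0.08979 in the other male controls. Trpv5 was 0.4824 in male control 2, against 0.3042 to 0.3327 in the other male controls. Male control 2 was the highest male control for 7 of the 10 genes, female control 3 the highest female control for 7, and female KlKl 4 the highest female KlKl for 8. Without male control 2 the sex difference of Trpv5 in controls was 0.44, the lowest value when 1 library was left out, against 0.59 with it.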

How the results depend on the processing

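Trpv6, at 15 to 42 reads per library, has the least depth of the 10 genes. Sex cannot be told apart from depth, nor wild-type from CFdk male controls. No KlKl difference of the 10 genes passed under any alternative that kept the gene except that of Trpv6 in females with library weights, and the sex differences of Casr passed under every alternative that tested them (a filter of 1 TPM left Casr out), at 0.17 to 1.52 in controls and 0.21 to 1.74 in KlKl, the low ends with a pseudocount of 1. Of 992 values of the 10 genes and Kl recomputed under 16 alternatives, 902 kept their direction and side of the threshold, 24 lost and 9 gained a call, and 57 changed sign, 0 of which were past the threshold before or after; the cause was not tested. The replicate numbers did not pair the libraries (3 of 24 pairs correlated above 0.1, range -0.185 to 0.197, and 2 of 16 libraries were closest to their own number); with the replicate number as a block the sex calls of Trpv5 ended, at adjusted p values of 0.05396 in KlKl and 0.06336 in controls (limma).

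Counts of passing genes were 4 in the mean KlKl comparison, 2 in male KlKl, 3 in female KlKl, 0 in the difference of effects, 6821 between the sexes in controls and 4467 in KlKl. With a pseudocount of 0.001 they were 1 in male KlKl, 1 in female KlKl. With a pseudocount of 0.1 they were 9 in the mean KlKl comparison, 6 in male KlKl. With a pseudocount of 1 they were 7 in male KlKl. With a filter of 1 TPM they were 2 in the mean KlKl comparison, 1 in male KlKl, 1 in female KlKl, 3798 between the sexes in controls, 2699 between the sexes in KlKl. Without a filter they were 5 in male KlKl, 4 in the difference of effects. On the deposited scale they were 4 in male KlKl, 7505 between the sexes in KlKl. With voom they were 5 in male KlKl. With library weights they were 39 in the mean KlKl comparison, 13 in male KlKl, 217 in female KlKl, 5 in the difference of effects, 10889 between the sexes in controls, 7966 between the sexes in KlKl. With the replicate number as a block they were 1 in male KlKl. With a name series term they were 1 in male KlKl. With an age term they were 0 in male KlKl. With heterozygous controls alone they were 2 in the mean KlKl comparison, 0 in male KlKl, 3494 between the sexes in controls. With the libraries of the contrast alone they were 0 in male KlKl, 0 in female KlKl. At a threshold of 0.01 they were 2 in the mean KlKl comparison, 0 in male KlKl, 3971 between the sexes in controls, 1815 between the sexes in KlKl. Without female control 3 and male KlKl 3 together they were 9 in male KlKl, 7025 between the sexes in KlKl. With 1 library left out they ran from 2 to 6 in the mean KlKl comparison, 0 to 7 in male KlKl, 2 to 11 in female KlKl, 0 to 2 in the difference of effects, 2805 to 6136 between the sexes in KlKl. The highest were 6 in the mean and 7 in males without male KlKl 3, and 11 in females without female control 1, and the lowest between the sexes in KlKl was 2805 without female KlKl 2.

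The following differences changed sign. With a pseudocount of 1, the difference of effects (male minus female) was -0.57 for Kl. On the deposited scale, the mean KlKl difference was 0.21 for Slc8a1, 0.23 for Atp2b1, 0.21 for Trpm7, the male KlKl difference was 0.22 for Trpm7, the female KlKl difference was 0.14 for Calb1, 0.012 for Atp2b1, the difference of effects (male minus female) was 0.025 for Trpm7, the sex difference in controls was 0.24 for Trpv6, 0.0072 for Calb1, 0.12 for Trpm6 and the sex difference in KlKl was 0.076 for Trpv6, 0.37 for Calb1, 0.015 for Atp2b1, 0.28 for Atp2b4, 0.37 for Trpm6. On an upper-quartile scale, the mean KlKl difference was 0.0084 for Atp2b1. With library weights, the mean KlKl difference was 0.14 for Slc8a1, 0.11 for Atp2b1, the female KlKl difference was 0.47 for Calb1, 0.011 for Atp2b1, -0.13 for Trpm7, the difference of effects (male minus female) was -0.0049 for Trpv5, -0.18 for Calb1, -0.31 for S100g, 0.029 for Trpm7, -0.24 for Casr, the sex difference in controls was 0.30 for Calb1 and the sex difference in KlKl was 0.12 for Calb1. With an age term, the male KlKl difference was -0.025 for Calb1, -0.0076 for Atp2b1, the female KlKl difference was 0.051 for Calb1, -0.0015 for Trpm7 and the difference of effects (male minus female) was -0.014 for Trpv5, -0.076 for Calb1, -0.13 for S100g, -0.083 for Casr. With heterozygous controls alone, the mean KlKl difference was -0.14 for Calb1, the male KlKl difference was -0.014 for Trpv5, -0.24 for Calb1, -0.029 for S100g, -0.085 for Trpm6, the difference of effects (male minus female) was -0.10 for Trpv5, -0.20 for Calb1, -0.30 for S100g, -0.22 for Trpm6 and the sex difference in controls was 0.11 for Calb1, 0.17 for Trpm6. Without female control 3 and male KlKl 3 together, the mean KlKl difference was 0.14 for Slc8a1, 0.10 for Atp2b1, the female KlKl difference was 0.23 for Calb1, 0.0032 for Atp2b1, -0.10 for Trpm7, the difference of effects (male minus female) was -0.14 for S100g, -0.020 for Trpm6, -0.25 for Casr and the sex difference in KlKl was 0.053 for Calb1. With 1 library left out, ranges that crossed 0 were for the mean KlKl difference -0.057 to 0.22 (Calb1), -0.12 to 0.090 (Slc8a1), -0.097 to 0.078 (Atp2b1), -0.087 to 0.0054 (Trpm7); for the female KlKl difference -0.095 to 0.24 (Trpv5), -0.32 to 0.23 (Calb1), -0.35 to 0.0032 (Atp2b1), -0.041 to 0.23 (Atp2b4), -0.10 to 0.083 (Trpm7), -0.021 to 0.38 (Casr); for the difference of effects (male minus female) -0.065 to 0.27 (Trpv5), -0.029 to 0.52 (Calb1), -0.16 to 0.36 (S100g), -0.063 to 0.27 (Trpm6), -0.15 to 0.030 (Trpm7), -0.14 to 0.26 (Casr); for the sex difference in controls -0.13 to 0.0037 (Trpv6), -0.32 to 0.0087 (Trpm6); for the sex difference in KlKl -0.25 to 0.19 (Calb1), -0.23 to 0.089 (Trpm6).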
